A study of Mus musculus with 6 samples.

Results

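Collagens are the main structural proteins of the matrix around cells, and 82 probe sets for 42 collagen chain genes were compared here between 2 groups of ribosome-bound RNA from mouse cortex. A probe set belongs to the group if the platform table gives it exactly 1 gene and the symbol reads Col, digits, a, digits; 45037 probe sets for 18193 genes were on the array in all. The chains were sorted by the assemblies their proteins form into fibrillar collagens (11 genes, 21 probe sets), network collagens (9 genes, 17 probe sets), FACIT collagens (9 genes, 24 probe sets) and others (13 genes, 20 probe sets).

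The RNA came from translating ribosome affinity purification (TRAP), which pulls down tagged ribosomes with the messengers they are reading; the tag is carried by a bacterial artificial chromosome transgene and is made where the gene named for each line is active. The S100a10 group came from line ES691 and the Glt25d2 group from line DU9, both untreated, each with 3 arrays labelled as biological replicates, and mice of both had been bred from FVB onto C57BL/6 over 3 to 5 generations. A letter b follows the replicate number in every S100a10 label and in no Glt25d2 label. Its meaning is not given there. Each group is 1 transgenic line, and neither the age of the mice nor how many were pooled is stated in the sources used here. Per the series text, which presents both as cortical pyramidal cells, the S100a10 transgene also marks some cells that are not neurons. Glt25d2, now Colgalt2, is itself an enzyme that puts galactose on collagen.

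Collagen chains wind around each other as a helix whose repeat has glycine at every turn, and they are folded and modified in the endoplasmic reticulum before secretion. Fibrillar chains (types I, II, III, V and XI among them) build the fibres of connective tissue, type IV chains build the sheet-like net of basement membranes, and FACIT chains sit on the surface of fibres. Type VI chains form beaded filaments, and a few collagens span the cell membrane. In the brain, fibres lie in the meninges and around larger vessels, and basement membranes surround vessels and the brain surface, whereas several membrane-spanning and FACIT chains are known from neurons.

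Promoter windows are shown for the genes the results turn on, written 5' to 3' in the direction of the gene. They come from RefSeq on GRCm38.p6, hold 250 bases before and 50 after the annotated start, and exist in the table for 33 of the 42 genes. Col1a2 (chr6:4505368-4505667, plus strand), Col13a1 (chr10:61979059-61979358, minus strand) and Col3a1 (chr1:45311288-45311587, plus strand) are the genes with the largest differences. Col4a5 (chrX:141475169-141475468, plus strand) is the network chain with the largest difference. Col4a1 (chr8:11312777-11313076, minus strand) and Col4a2 (chr8:11312555-11312854, plus strand) lie head to head with starts 21 bases apart, so their windows share 78 bases. Capitals mark the letters CCAAT and also GGGCGG and TATAAA, on either strand.
Col1a2: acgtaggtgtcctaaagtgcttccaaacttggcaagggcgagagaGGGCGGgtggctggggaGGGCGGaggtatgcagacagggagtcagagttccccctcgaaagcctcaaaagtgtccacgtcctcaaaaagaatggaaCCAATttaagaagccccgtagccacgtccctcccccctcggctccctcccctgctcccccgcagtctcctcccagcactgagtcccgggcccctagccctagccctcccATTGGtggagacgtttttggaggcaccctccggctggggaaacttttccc
Col13a1: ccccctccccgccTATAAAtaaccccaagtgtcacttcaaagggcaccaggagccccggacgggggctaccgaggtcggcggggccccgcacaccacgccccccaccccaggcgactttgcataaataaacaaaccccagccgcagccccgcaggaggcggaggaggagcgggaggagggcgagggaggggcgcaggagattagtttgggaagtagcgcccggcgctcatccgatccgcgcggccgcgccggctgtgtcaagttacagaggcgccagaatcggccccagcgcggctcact
Col3a1: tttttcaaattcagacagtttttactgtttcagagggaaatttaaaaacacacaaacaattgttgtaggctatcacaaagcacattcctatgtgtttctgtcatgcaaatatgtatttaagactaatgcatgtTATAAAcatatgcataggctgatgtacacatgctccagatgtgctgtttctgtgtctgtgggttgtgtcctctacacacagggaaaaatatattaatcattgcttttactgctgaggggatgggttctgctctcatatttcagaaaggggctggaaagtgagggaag
Col4a5: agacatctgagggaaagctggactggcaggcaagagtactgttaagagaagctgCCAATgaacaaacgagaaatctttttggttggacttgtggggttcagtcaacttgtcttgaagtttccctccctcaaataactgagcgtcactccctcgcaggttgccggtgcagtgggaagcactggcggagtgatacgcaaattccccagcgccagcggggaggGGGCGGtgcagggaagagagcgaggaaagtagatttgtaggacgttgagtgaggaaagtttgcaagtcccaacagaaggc
Col4a1: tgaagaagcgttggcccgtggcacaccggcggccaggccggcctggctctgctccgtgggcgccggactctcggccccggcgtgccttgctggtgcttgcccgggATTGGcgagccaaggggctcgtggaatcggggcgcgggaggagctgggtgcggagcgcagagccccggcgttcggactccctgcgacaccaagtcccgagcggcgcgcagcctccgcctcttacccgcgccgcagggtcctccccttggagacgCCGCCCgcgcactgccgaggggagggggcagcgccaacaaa
Col4a2: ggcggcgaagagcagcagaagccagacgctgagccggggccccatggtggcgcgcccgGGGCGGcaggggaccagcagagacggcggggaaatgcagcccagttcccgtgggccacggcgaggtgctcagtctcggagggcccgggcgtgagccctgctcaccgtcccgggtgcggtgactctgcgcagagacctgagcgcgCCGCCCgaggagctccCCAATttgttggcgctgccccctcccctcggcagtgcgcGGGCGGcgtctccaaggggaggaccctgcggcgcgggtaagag

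The Col1a2 window holds CCAAT 2 times and GGGCGG 2 times, those of Col13a1 and Col3a1 hold TATAAA 1 time each, and 1 GGGCGG site lies in the stretch that Col4a1 and Col4a2 share. Over all 36 windows of the 33 genes, GGGCGG was found in 22, CCAAT in 13 and TATAAA in 5, against 35.7%, 37.4% and 13.6% of the 32851 windows of all genes. These matches describe letters, without any measure of binding.

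Values are linear intensities as deposited, and differences are given as log2 values of S100a10 minus Glt25d2 from limma, with p-values adjusted by Benjamini-Hochberg over all probe sets tested. A probe set was tested where the mean of at least 1 group reached 50, the limit named in the series text. The S100a10 driver had intensities of 15496, 17898 and 13064 in S100a10 arrays, against 3126, 3141 and 3444 in Glt25d2 arrays, and the Colgalt2 driver had 11.4, 11.7 and 11.7 in S100a10 arrays, against 1053, 827 and 1352 in Glt25d2 arrays. The arrays were not on 1 scale: their median intensity was 35.5 to 35.8 in S100a10 arrays and 20.4 to 21.3 in Glt25d2 arrays, and the median tested probe set differed by 0.55, or by -0.058 after quantile normalization of the 6 arrays and by -0.21 after centring each array on its median. Whether both groups were normalized together is not stated in the sources used here. Sorted log2 intensities differed on average by 0.0174 to 0.0811 between arrays of 1 group and by 0.447 to 0.508 between arrays of different groups. A difference of deposited values contains this offset, and a small one cannot be told apart from it. Quantile normalization took the difference of Col16a1 from 0.94 to 0.014 and that of Col1a2 from 6.76 to 6.20. Values after quantile normalization are given for the collagen probe sets that were tested and for most pathway genes named. For a gene under 50 on all 3 arrays of one group, the fold given is a lower bound: the mean log2 level of the other group set against 50, on the deposited scaling only. Precision is limited by the 3 arrays a group, and p-values measure the spread between these samples. For several tested collagen probe sets, such as those of Col4a5 and Col26a1, all 3 Glt25d2 values were identical. Such values hold no spread between samples, so the SE and p-values of these probe sets may be too small. In pulled-down RNA of this kind, more cells of a type and more messenger per cell cannot be told apart.

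Of the 82 collagen probe sets 28 reached the limit, and they stood for 20 of the 42 genes. Higher intensity in S100a10 arrays passed the threshold for 20 of the 28, and lower intensity for 1, while 44.2% of all 21291 tested probe sets were higher and 4.39% lower (limma, adjusted p under 0.05). After quantile normalization 16 were higher and 3 lower of the 28, with 16.8% and 19.4% of all probe sets; after centring 17 were higher and 3 lower, with 15.8% and 30.3%. Taking for each gene the probe set with the highest mean log2 level, 15 genes were higher, 0 lower and 5 did not pass in limma (1 was lower at an unadjusted p under 0.05), or 12 higher and 1 lower after quantile normalization, where 18.4% of all genes were higher and 18.4% lower. The groups did not overlap for 26 of the 28, which was also so for 62.7% of all tested probe sets.

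The limit itself bears on these counts. Of the 28 probe sets, 20 reached 50 in S100a10 arrays alone, 7 in both groups and 1 in Glt25d2 arrays alone. Of the 20, 18 were higher, and among all 3014 probe sets that entered this way 90.2% were higher, so that share is near the background. After quantile normalization 15 of the 20 were higher and 1 lower, against 53.8% and 3.22%. The 1 that entered through Glt25d2 arrays alone was lower, as were 59.2% of all such probe sets, and 93.2% after quantile normalization. Of the 7 that reached the limit in both groups, 2 were higher and 0 lower, against 37.2% and 4.23% of all such probe sets (1 and 1 after quantile normalization, against 10.8% and 20.9%). In size, the median difference of the 20 was 2.87, against 1.63 for all probe sets that entered through S100a10 arrays alone. A log2 difference of at least 3 between the deposited values (a size chosen after they were seen) was reached by 10 collagen probe sets of 9 genes, against 3.53% of all tested probe sets and 19.8% of those that entered through S100a10 arrays alone, and by 6 probe sets of 5 genes after quantile normalization, against 2.07% and 12.3%. All 10 lay under 50 in every Glt25d2 array, and against 50 only 2 of them, of Col1a2 and Col13a1, had a bound of at least 8-fold. The probe sets nearest the limit had a higher group mean of 45.0 below it and 53.5 above it.

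**Figure D1:**
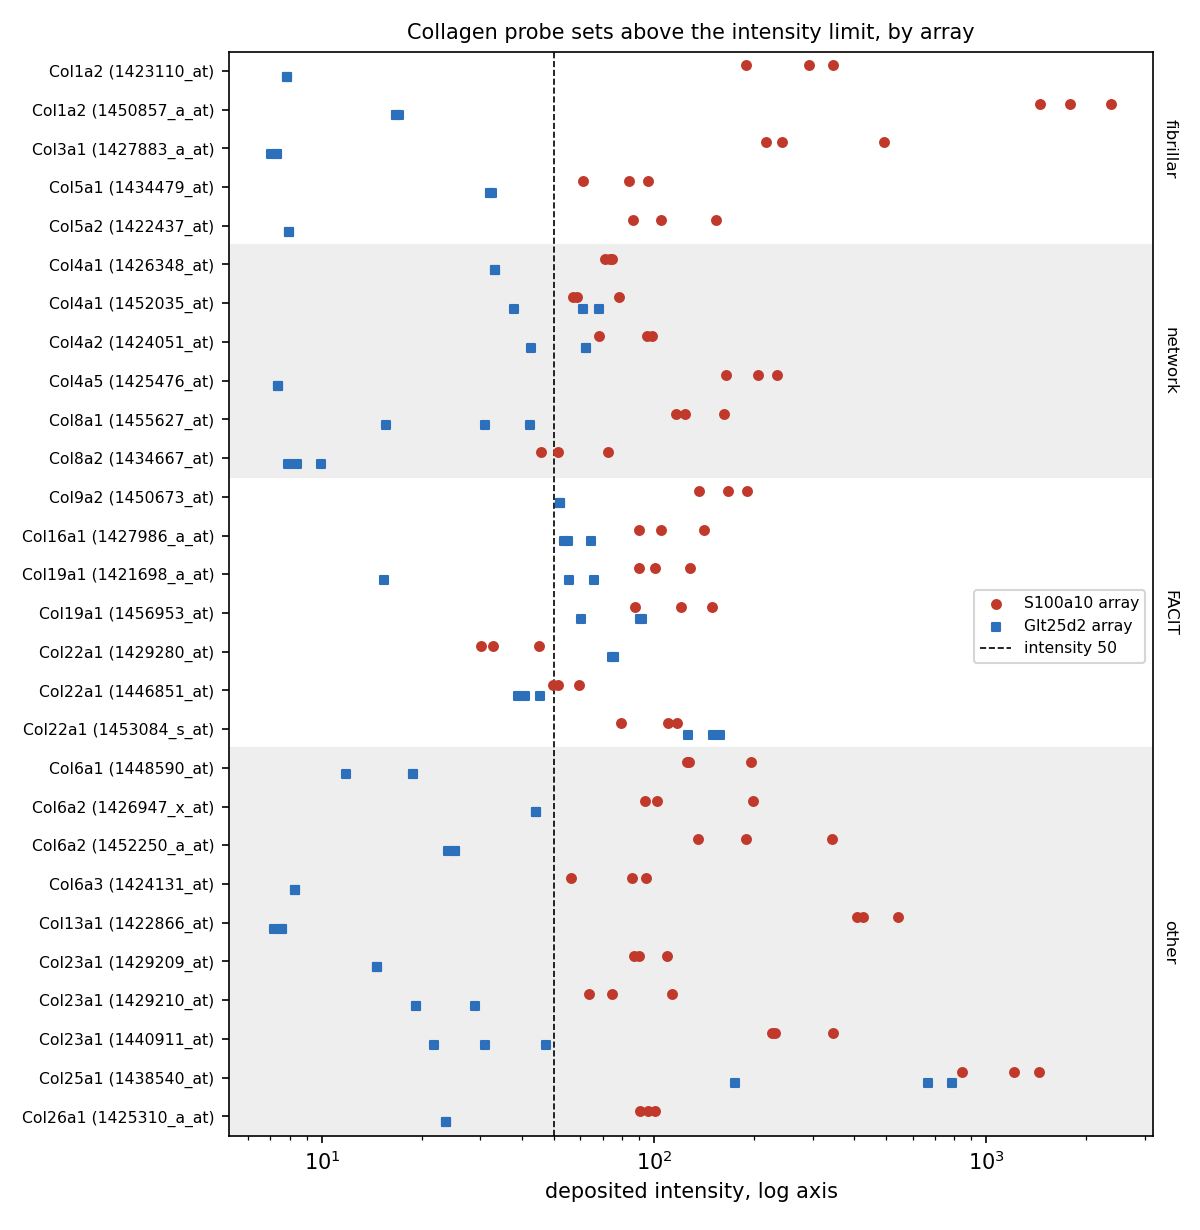
Deposited intensity (log axis) of the 28 collagen probe sets that reached the limit, by class, with 1 point for each S100a10 array and each Glt25d2 array; the dashed line marks 50. In 19 probe sets every Glt25d2 array lies under the line, and the Col22a1 probe set 1429280_at is the 1 whose S100a10 arrays all lie under it.

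Among fibrillar chains Col1a2, the second chain of type I collagen, which makes the thick fibres of connective tissue, had the largest log2 difference of the 28 tested collagen probe sets. All 5 fibrillar probe sets that reached the limit, of 4 genes, were higher in S100a10 arrays, and 4 of them stayed past the threshold after quantile normalization. Each of the 5 entered through S100a10 arrays alone, and the other 16 fibrillar probe sets were not tested. Col1a2 (probe set 1450857_a_at) had intensities of 1448, 2373 and 1781 in S100a10 arrays, against 16.73, 16.73 and 17.04 in Glt25d2 arrays. The groups lay far apart, with replicate 2 the highest of the S100a10 arrays. The difference was 6.76 (SE 0.19, limma adjusted p = 9.53e-06), or 6.20 after quantile normalization, and at least 36.6-fold. The second probe set, 1423110_at, had 189, 345 and 293 in S100a10 arrays, against 7.83 in each Glt25d2 array. Its difference was 5.09 (SE 0.23), or 4.59 after quantile normalization, so both tested probe sets pointed the same way. Probe set 1446326_at stayed under the limit, with 6.79, 6.02 and 7.6 in S100a10 arrays, against 5.72, 5.72 and 5.77 in Glt25d2 arrays.

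Col3a1 encodes the single chain of type III collagen, which forms thin, flexible fibres together with type I. It had 242, 492 and 217 in S100a10 arrays, against 7.30, 7.03 and 7.30 in Glt25d2 arrays. The difference was 5.36 (SE 0.32, limma adjusted p = 9.86e-05), or 4.88 after quantile normalization, and at least 5.91-fold. Its neighbour on chromosome 1, Col5a2, a chain of the type V collagen that starts fibres and limits their width, was high in the same arrays. Col5a2 had 86.6, 154 and 105 in S100a10 arrays, against 7.97 in each Glt25d2 array. The difference was 3.81 (SE 0.22, limma adjusted p = 8.71e-05), or 3.25 after quantile normalization, and at least 2.23-fold. Col5a1, its partner chain, had 60.8, 83.7 and 95.7 in S100a10 arrays, against 32.0, 32.4 and 32.0 in Glt25d2 arrays. That difference was smaller, 1.29 (SE 0.18, limma adjusted p = 0.0024), and 0.38 with an adjusted p of 0.179 after quantile normalization. Other probe sets of these genes stayed under the limit. Col3a1 probe set 1427884_at averaged 6.89 in S100a10 arrays and 6.18 in Glt25d2 arrays, and Col5a2 probe set 1450625_at 18.85 and 6.73. Col5a1 probe set 1416741_at averaged 12.29 and 12.18, with groups that overlap, and 1416740_at 44.98 and 8.17.

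Col1a1, the other chain of type I collagen, did not reach the limit and was not tested. Its brighter probe set (1455494_at) had 36.4, 55.6 and 43.0 in S100a10 arrays, against 9.70 in each Glt25d2 array, so 1 array lay over 50. The remaining fibrillar chains, Col2a1, Col5a3, Col11a1, Col11a2, Col24a1 and Col27a1, lay between 5.25 and 34.9 in S100a10 arrays and between 4.97 and 28.1 in Glt25d2 arrays.

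Network chains were split between a type IV pair that differed little and other chains that were higher in S100a10 arrays. Of 5 genes that reached the limit 3 were higher and 2 did not pass, with the same counts after quantile normalization. This split ran along the route past the limit. Col4a5, Col8a1 and Col8a2 entered through S100a10 arrays alone, where 90.2% of all probe sets were higher (53.8% after quantile normalization). Col4a1 and Col4a2, by the probe sets used in the gene counts, reached it in both groups, where 37.2% were higher (10.8% after quantile normalization). Whether the chains differ beyond their routes was not tested. Col4a5, the X-linked type IV chain that joins minor basement membrane nets, had 165, 206 and 233 in S100a10 arrays, against 7.37 in each Glt25d2 array. The difference was 4.76 (SE 0.15, limma adjusted p = 1.25e-05), or 4.25 after quantile normalization, and at least 3.98-fold. Its other probe set, 1425475_at, stayed under the limit, with 29.4, 36.0 and 38.9 in S100a10 arrays, against 14.3 in each Glt25d2 array. Col4a6, the next gene on the X chromosome, read from the opposite strand, stayed between 13.6 and 21.5 in S100a10 arrays and between 5.07 and 9.97 in Glt25d2 arrays.

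Col4a1 and Col4a2 encode the chains of the major type IV collagen of all basement membranes, those of blood vessels included. Col4a2 had 68.0, 98.6 and 95.3 in S100a10 arrays, against 62.2, 62.2 and 42.7 in Glt25d2 arrays. The groups did not overlap, yet the difference of 0.65 (SE 0.22, limma adjusted p = 0.0569) did not pass, and it was -0.26 after quantile normalization. Without S100a10 replicate 1 it was 0.82 and passed (limma adjusted p = 0.0417). Col4a1 had 2 probe sets that disagreed. With 1452035_at it had 58.5, 78.5 and 56.9 in S100a10 arrays, against 60.9, 68.2 and 37.9 in Glt25d2 arrays, which overlap, and the difference of 0.24 (SE 0.26, limma adjusted p = 0.475) turned to -0.66 after quantile normalization (adjusted p = 0.0613). With quantile normalization and without Glt25d2 replicate 3 it was -0.86 and passed as lower in S100a10 arrays (limma adjusted p = 0.00801). With 1426348_at it had 70.9, 73.8 and 74.8 in S100a10 arrays, against 33.2 in each Glt25d2 array, a difference of 1.14 (SE 0.086, limma adjusted p = 2.23e-04) that was 0.21 and did not pass after quantile normalization (adjusted p = 0.194). Of 7 endothelial marker genes that reached the limit 3 were lower in S100a10 arrays, 1 was higher and 3 did not pass, or 5 lower and none higher after quantile normalization, and the summed intensity of the 14 was 660 to 799 in S100a10 arrays and 1151 to 2576 in Glt25d2 arrays, lowest of these in replicate 3. Their part in the type IV values was not tested.

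Type VIII chains, which form open lattices beneath endothelium and in Descemet's membrane of the eye, were higher in S100a10 arrays. Col8a1 had 116, 162 and 124 in S100a10 arrays, against 42.2, 31.0 and 15.5 in Glt25d2 arrays, a difference of 2.28 (SE 0.38, limma adjusted p = 0.00471), or 1.44 after quantile normalization and 1.87 without Glt25d2 replicate 3, its lowest array. Col8a2 had 45.5, 72.7 and 51.2 in S100a10 arrays, against 9.91, 7.92 and 8.40 in Glt25d2 arrays. Its difference was 2.67 (SE 0.21, limma adjusted p = 2.37e-04), or 2.10 after quantile normalization, but the bound was 1.11-fold, and without S100a10 replicate 2 it fell under the limit. Col4a3, Col4a4 and Col10a1, known from kidney and growing cartilage, stayed between 4.29 and 12.9 in S100a10 arrays and between 3.98 and 11.2 in Glt25d2 arrays.

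**Figure D2:**
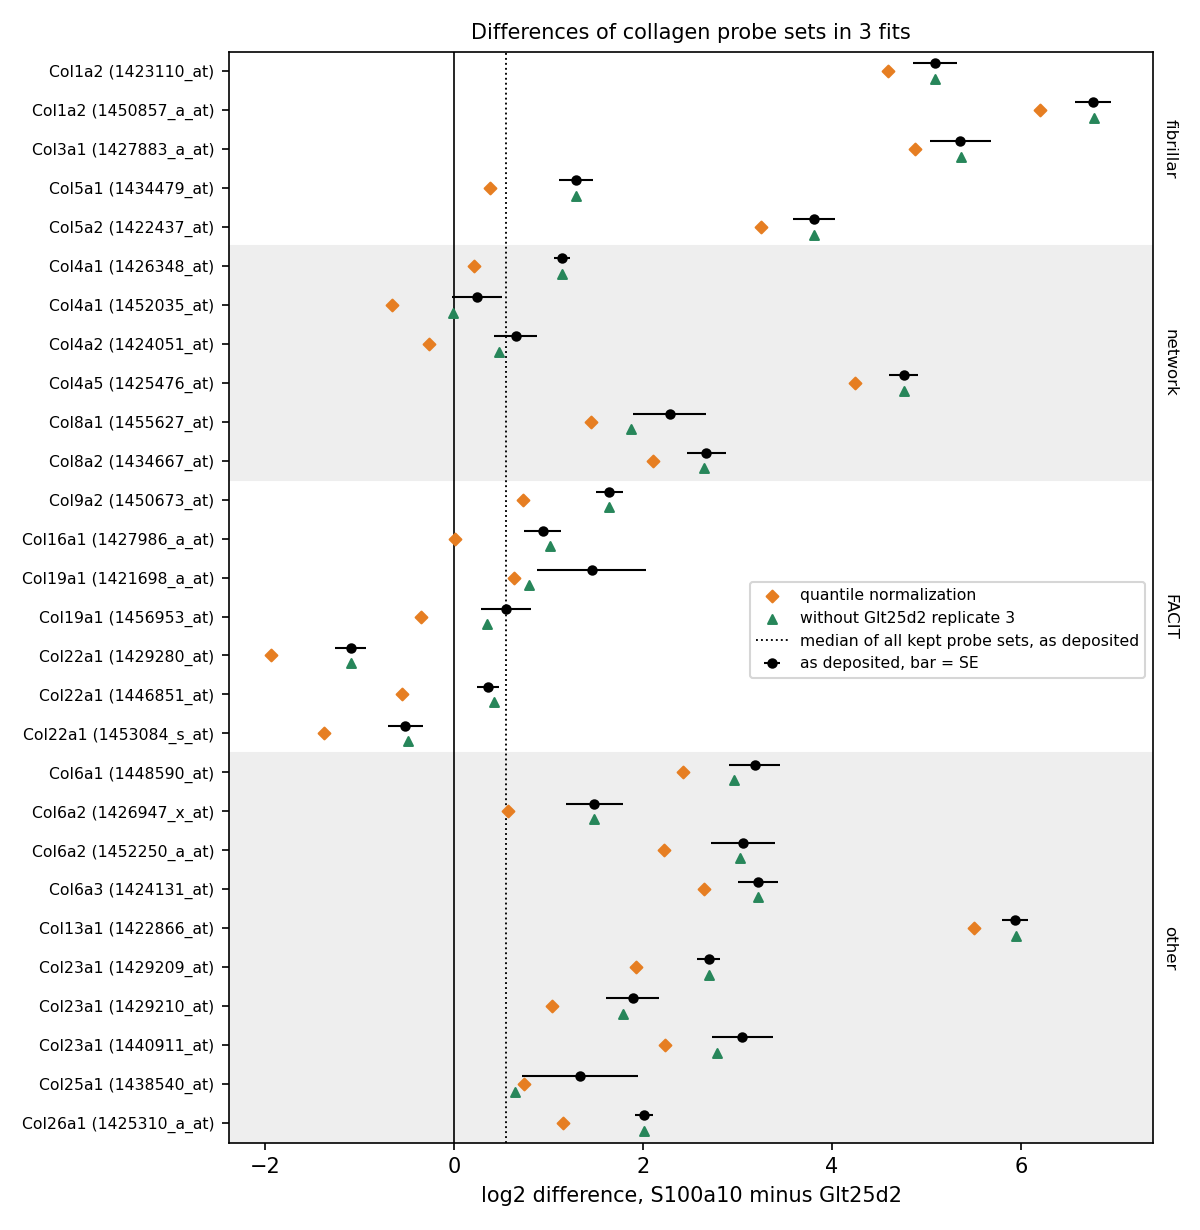
Log2 difference of S100a10 minus Glt25d2 for the 28 collagen probe sets as deposited (circles, bars are SE), after quantile normalization (diamonds) and without Glt25d2 replicate 3 (triangles); the dotted line is the median of all tested probe sets as deposited, 0.55. Diamonds lie left of the circles throughout, and they cross zero for Col4a1 (1452035_at), Col4a2, Col19a1 (1456953_at) and Col22a1 (1446851_at).

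FACIT chains had low or mixed differences, and they held the 1 collagen probe set that was lower in S100a10 arrays. The median difference of their 7 tested probe sets was 0.55, close to that of all tested probe sets. Col9a2, a chain of the type IX collagen of cartilage fibres, had 137, 167 and 190 in S100a10 arrays, against 52.2 in each Glt25d2 array. The difference was 1.64 (SE 0.14, limma adjusted p = 3.71e-04), or 0.73 after quantile normalization (adjusted p = 0.0254). Col16a1, whose protein links fibres and basement membranes to cells, had 89.9, 142 and 105 in S100a10 arrays, against 55.2, 53.7 and 64.4 in Glt25d2 arrays. Its difference of 0.94 (SE 0.19, limma adjusted p = 0.0102) was 0.014 after quantile normalization.

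Col22a1, a chain first known from junctions of muscle and tendon, had 3 probe sets that disagreed on the deposited scale and were all lower in S100a10 arrays after quantile normalization and after centring. Probe set 1453084_s_at had 79.5, 110 and 117 in S100a10 arrays, against 158, 126 and 150 in Glt25d2 arrays, a difference of -0.52 (SE 0.19, limma adjusted p = 0.0648) that became -1.37 and passed after quantile normalization (adjusted p = 0.00487). Probe set 1429280_at had 30.04, 32.80 and 44.85 in S100a10 arrays, against 75.9, 74.9 and 75.9 in Glt25d2 arrays, and was lower in S100a10 arrays by a difference of -1.10 (SE 0.17, limma adjusted p = 0.00335), at least 1.51-fold, or -1.94 after quantile normalization (adjusted p = 6.38e-04). Probe set 1446851_at had 49.7, 51.2 and 59.6 in S100a10 arrays, against 38.9, 40.8 and 45.3 in Glt25d2 arrays, with the opposite sign at 0.36 (SE 0.12, limma adjusted p = 0.0529). It passed as higher without Glt25d2 replicate 3 (0.42, adjusted p = 0.03) but as lower after quantile normalization (-0.55, adjusted p = 0.038) and after centring (-0.41, adjusted p = 0.0474).

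Col19a1, a FACIT chain known in mouse brain from subsets of interneurons, was not called. Its probe set 1456953_at had 87.7, 149 and 120 in S100a10 arrays, against 90.7, 92.1 and 60.2 in Glt25d2 arrays, which overlap (difference 0.55, SE 0.26, limma adjusted p = 0.139, and -0.35 after quantile normalization). Its probe set 1421698_a_at had 90.0, 101 and 128 in S100a10 arrays, against 55.3, 66.1 and 15.4 in Glt25d2 arrays. The difference of 1.46 (SE 0.57, limma adjusted p = 0.0834), or 0.63 after quantile normalization, became 0.80 and passed without Glt25d2 replicate 3 (adjusted p = 0.00898), and was -0.045 when the 5 other arrays were also quantile normalized. The remaining FACIT genes, Col9a1, Col9a3, Col12a1, Col14a1 and Col20a1, held 16 probe sets between 3.52 and 32.9 in S100a10 arrays and between 3.74 and 29.9 in Glt25d2 arrays.

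**Figure D3:**
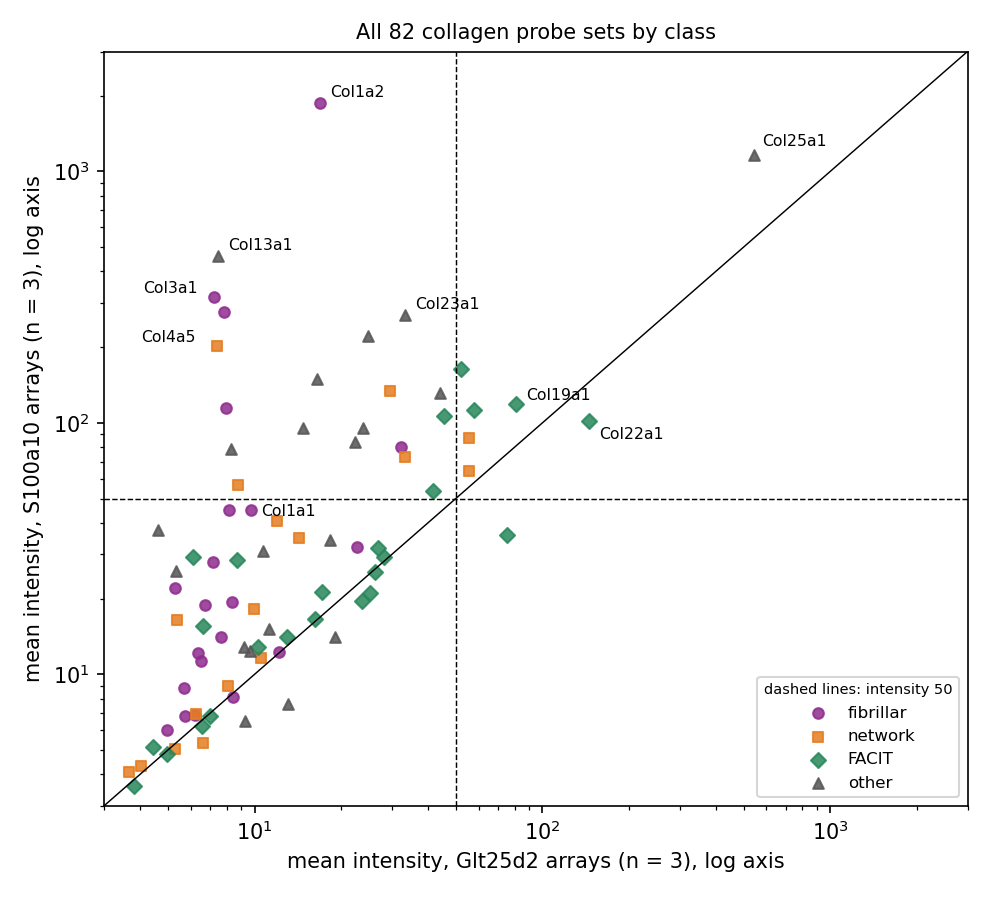
Mean intensity in S100a10 arrays (vertical) and Glt25d2 arrays (horizontal), n = 3 each, for all 82 collagen probe sets on log axes, with a point for each probe set shaped by class; the diagonal marks equal means and the dashed lines mark 50. Fibrillar points reach up to the Col1a2 mean of 1867 at a Glt25d2 mean of 16.8, and Col22a1 is the gene with points over 50 below the diagonal.

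Type VI chains, whose beaded filaments surround cells of connective tissue, vessels and nerves, were higher in S100a10 arrays for all 3 genes that reached the limit. These were the chains of the common molecule. Their 4 tested probe sets entered through S100a10 arrays alone, where 90.2% of all probe sets were higher (53.8% after quantile normalization). By the gene counts 2 of the 3 stayed higher after quantile normalization. Col6a1 had 128, 195 and 125 in S100a10 arrays, against 18.8, 18.8 and 11.8 in Glt25d2 arrays. The difference was 3.18 (SE 0.27, limma adjusted p = 3.38e-04), or 2.42 after quantile normalization, and at least 2.92-fold. Col6a3, the longest of the 3, had 85.7, 94.6 and 56.2 in S100a10 arrays, against 8.27 in each Glt25d2 array, a difference of 3.22 (SE 0.21, limma adjusted p = 1.29e-04), or 2.64 after quantile normalization. Its bound was 1.54-fold, and with values under 50 set to 50 it no longer passed (0.62, adjusted p = 0.0549).

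Col6a2, which neighbours Col6a1 on chromosome 10, had 2 probe sets with unequal differences. Probe set 1426947_x_at had 93.8, 199 and 102 in S100a10 arrays, against 44.2 in each Glt25d2 array, a difference of 1.49 (SE 0.30, limma adjusted p = 0.0091), or 0.57 without passing after quantile normalization (adjusted p = 0.204). Probe set 1452250_a_at had 136, 342 and 189 in S100a10 arrays, against 25.2, 25.2 and 23.9 in Glt25d2 arrays, a difference of 3.06 (SE 0.34, limma adjusted p = 9.29e-04), or 2.22 after quantile normalization. The suffix x marks a probe set whose probes can also match other transcripts. Probe set 1426947_x_at stood for Col6a2 in the counts of genes. Col6a4 and Col6a5, later additions to the type VI family, stayed between 7.43 and 15.8 in S100a10 arrays and between 9.20 and 21.8 in Glt25d2 arrays.

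Among chains that span the cell membrane, Col13a1 and Col23a1 were higher in S100a10 arrays and Col25a1 did not pass with all arrays. The tested probe sets of Col13a1 and Col23a1 entered through S100a10 arrays alone, and that of Col25a1 reached the limit in both groups. Col13a1, which is needed at the junction of nerve and muscle and lies at cell contacts elsewhere, had 425, 543 and 409 in S100a10 arrays, against 7.57, 7.19 and 7.57 in Glt25d2 arrays. The difference was 5.94 (SE 0.14, limma adjusted p = 7.37e-06), or 5.50 after quantile normalization, and at least 9.10-fold. Col23a1 had 226, 345 and 232 in S100a10 arrays, against 47.1, 30.9 and 21.7 in Glt25d2 arrays with probe set 1440911_at, a difference of 3.05 (SE 0.33, limma adjusted p = 8.29e-04), or 2.23 after quantile normalization. Its probe sets 1429209_at and 1429210_at gave 2.69 (SE 0.12) and 1.89 (SE 0.28), or 1.92 and 1.04 after quantile normalization, so all 3 were higher and passed on both scales.

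Col25a1 encodes a neuronal membrane collagen whose shed part is found in amyloid plaques, and did not pass with all 6 arrays. It had 843, 1444 and 1212 in S100a10 arrays, against 669, 787 and 175 in Glt25d2 arrays. The groups did not overlap, and Glt25d2 replicate 3 lay far under the other two. The difference was 1.33 (SE 0.61, limma adjusted p = 0.123), or 0.74 after quantile normalization. Without that array it was 0.65 and passed narrowly (adjusted p = 0.0495), and 0.14 when the 5 other arrays were quantile normalized. Col17a1, the membrane collagen of skin attachment, lay between 6.46 and 6.59 in S100a10 arrays, against 9.27 in each Glt25d2 array.

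Col26a1, a short collagen with an EMI domain, had 90.4, 100 and 96.0 in S100a10 arrays, against 23.7 in each Glt25d2 array. The difference was 2.01 (SE 0.091, limma adjusted p = 3.82e-05), or 1.15 after quantile normalization (adjusted p = 9.05e-04), and at least 1.91-fold. Col15a1 and Col18a1, whose proteins carry sugar chains in basement membranes and yield fragments that act on vessels, did not reach the limit. Col18a1 came close in 1 array, with 25.7, 50.7 and 36.0 in S100a10 arrays, against 4.57, 4.57 and 4.67 in Glt25d2 arrays (probe set 1426955_at). Col15a1 had 30.7, 37.8 and 34.0 in S100a10 arrays, against 16.5, 21.5 and 16.8 in Glt25d2 arrays, and Col7a1, the anchoring fibril of skin, lay between 15.04 and 15.49 in S100a10 arrays, against 11.2 in each Glt25d2 array.

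The arrays of a group did not hold the collagens at 1 level. Replicate 2 was the highest S100a10 array for 20 of the 28 probe sets and replicate 1 the lowest for 22, whereas over all tested probe sets with 3 different values replicate 2 was highest in 31.2% and replicate 1 lowest in 29.3%. Col3a1 and both Col6a2 probe sets had replicate 2 about as high as the other two together, with replicate 1 the lowest for Col6a2 and replicate 3 for Col3a1. In the Glt25d2 group 18 of the 28 held at least 2 identical values, against 23.4% of all tested probe sets. Glt25d2 replicate 3 lay under 50% of the mean of the other two for 3 collagen probe sets, of Col8a1, Col19a1 and Col25a1, against 13.3% of all tested probe sets. Leaving out this array left 23 of the 28 higher and 1 lower, with 55.1% and 6.01% of all probe sets.

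**Figure D4:**
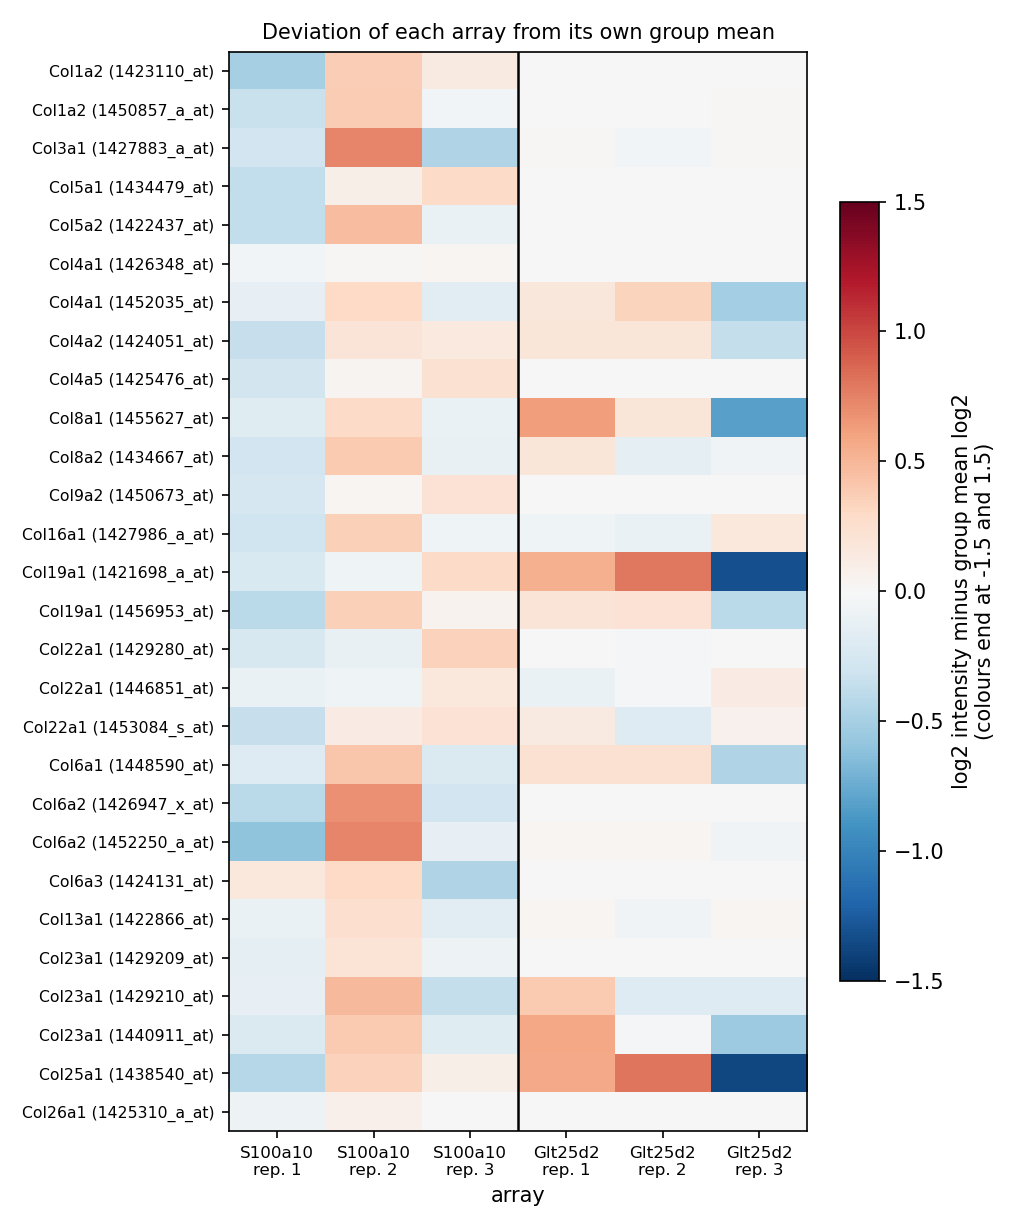
Log2 intensity of each array minus the mean log2 of its own group, for the 28 collagen probe sets (rows) and the 6 arrays (columns, S100a10 left of the line). The column of S100a10 replicate 2 is red for most rows and that of replicate 1 blue, and in the Glt25d2 group the darkest blue cells are replicate 3 for Col19a1 and Col25a1.

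Other genes of the collagen pathway were read from lists by the gene's probe set, beside 44.4% of all 11821 tested genes higher and 4.5% lower. Of all probe sets that entered through S100a10 arrays alone 90.2% were higher, or 53.8% after quantile normalization. Plod3, P3h1, P3h3, P3h4, Crtap, Pcolce, Loxl1, Ddr2, Mrc2, Itgb1, Nid1, Lama4, Lama1 and Lamb2 entered this way. Their calls as higher compare with that background. The list counts were not split by route. Of 14 measured genes for modification and folding in the endoplasmic reticulum 8 were higher in S100a10 arrays, 1 was lower and 5 did not pass, or 5 higher and 1 lower after quantile normalization. Serpinh1, the chaperone HSP47 that binds the collagen helix, averaged 631 ± 189 in S100a10 arrays and 61.2 ± 9.99 in Glt25d2 arrays (SD, n = 3 each), and differed by 3.33 (SE 0.26), or 2.56 after quantile normalization. P3h3, of a family that hydroxylates proline, differed by 3.56 (3.10 after quantile normalization), with a bound of 1.05-fold, and Crtap, a partner of such an enzyme, by 3.17 (SE 0.34; 2.38 after quantile normalization). The 1 lower gene was the driver Colgalt2, at -6.51. P4hb and Ppib, general folding enzymes, did not pass: P4hb had 1684, 2373 and 1934 in S100a10 arrays, against 1938, 1882 and 92.9 in Glt25d2 arrays.

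Of 5 measured genes for processing and crosslinking outside the cell 4 passed as higher in S100a10 arrays and none as lower; after quantile normalization 3 did. Pcolce, which speeds the cutting of procollagen ends, had 2085, 3905 and 2741 in S100a10 arrays, against 25.9, 34.6 and 14.9 in Glt25d2 arrays, and was at least 56.3-fold higher (log2 difference 6.89, or 6.35 after quantile normalization). Sparc, a matrix protein that binds collagen, differed by 5.03 (SE 0.74), Loxl1, a crosslinking enzyme, by 4.22 (SE 0.096) and Bmp1, the protease that cuts the ends, by 1.30 (SE 0.39). After quantile normalization these were 4.47, 3.59 and 0.42, and Bmp1 no longer passed. The bound of Loxl1 was 3.85-fold. Among 5 measured receptors 3 passed as higher and none as lower, and 2 did after quantile normalization. The 3 were Ddr2, a kinase that fibrillar collagen activates, at 4.23, Mrc2, which takes up collagen fragments, at 3.77, and the integrin chain Itgb1 at 1.51, or 3.52, 3.04 and 0.65 after quantile normalization, where Itgb1 no longer passed. Bounds were 5.82-fold for Ddr2, 3.84-fold for Mrc2 and 1.97-fold for Itgb1. Ddr1 had 3113, 6031 and 3868 in S100a10 arrays, against 2968, 3210 and 280 in Glt25d2 arrays. It did not pass (limma adjusted p = 0.234).

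Of 8 measured partners of collagen in basement membranes 6 passed as higher in S100a10 arrays and none as lower; after quantile normalization 4 did. Nid1, which ties laminin to type IV collagen, differed by 4.41 (SE 0.22), and the laminin chains Lama4, Lama1 and Lamb2 by 3.24, 2.80 and 2.33. After quantile normalization these 4 were 3.77, 2.65, 2.23 and 1.45. All 4 lay under 50 in every Glt25d2 array, with bounds of 5.01-fold, 1.56-fold, 1.21-fold and 4.83-fold. Hspg2, the proteoglycan perlecan, differed by 0.58 and took a negative sign, -0.14, after quantile normalization.

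Markers of other cell types differed in the same arrays, and their part in the collagen values was not tested. All 16 markers of meningeal and perivascular fibroblasts, collagens left out of the list, were higher in S100a10 arrays as deposited and after quantile normalization. Their summed intensity was 58129 to 65940 in S100a10 arrays and 372 to 809 in Glt25d2 arrays, and 10 of the 16 lay under 50 in every Glt25d2 array. At least these 10 entered through S100a10 arrays alone, where 90.2% of all probe sets were higher (53.8% after quantile normalization). Foxd1, Ogn and Foxc2 were at least 165-fold, 115-fold and 46.0-fold higher. Among S100a10 arrays this sum was highest in replicate 2 and lowest in replicate 3, at 65940 and 58129, with 62167 in replicate 1. By gene, replicate 1 was the lowest S100a10 array for 7 of the 16, replicate 2 for 1 and replicate 3 for 8. Of 13 mural cell markers 7 reached the limit, and the others were not tested. Of the 7, 5 were higher, 1, Rgs5, was lower and 1 did not pass (5 higher and 2 lower after quantile normalization). Sums over the 13 were 6385 to 7997 in S100a10 arrays and 808 to 1017 in Glt25d2 arrays. Of 9 measured genes of the list for excitatory neurons 4 were higher and none lower, but 3 and 1 after quantile normalization and 2 and 3 after centring. This list also holds Snap25, Syt1, Syn1 and Rbfox3, which are active in neurons in general. Its counts and sums are therefore not those of excitatory neurons alone. The sums were 92894 to 93869 in S100a10 arrays and 68130 to 71684 in Glt25d2 arrays, of which Snap25 averaged 49147 and 40285. Of 7 markers of subcerebral projection neurons 6 were lower in S100a10 arrays, and 6 after quantile normalization. No marker of these 2 neuronal lists lay under 50 in every Glt25d2 array. In every S100a10 array 2 of the subcerebral list, Lratd2 and Diaph3, lay under 50. They entered through Glt25d2 arrays alone, where 59.2% of all probe sets were lower (93.2% after quantile normalization). Of 9 interneuron markers 4 were higher and 1 lower on both scales, and of 10 astrocyte markers 4 were higher and 2 lower, with 3 and 2 once quantile normalized. As deposited, the shares higher in these 2 lists and in the list for excitatory neurons were near the 44.4% of all tested genes. Of 7 oligodendrocyte markers 1 was higher and 2 lower, but none higher and 3 lower after quantile normalization, and of 4 microglial markers 1 was higher on both scales.

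**Figure D5:**
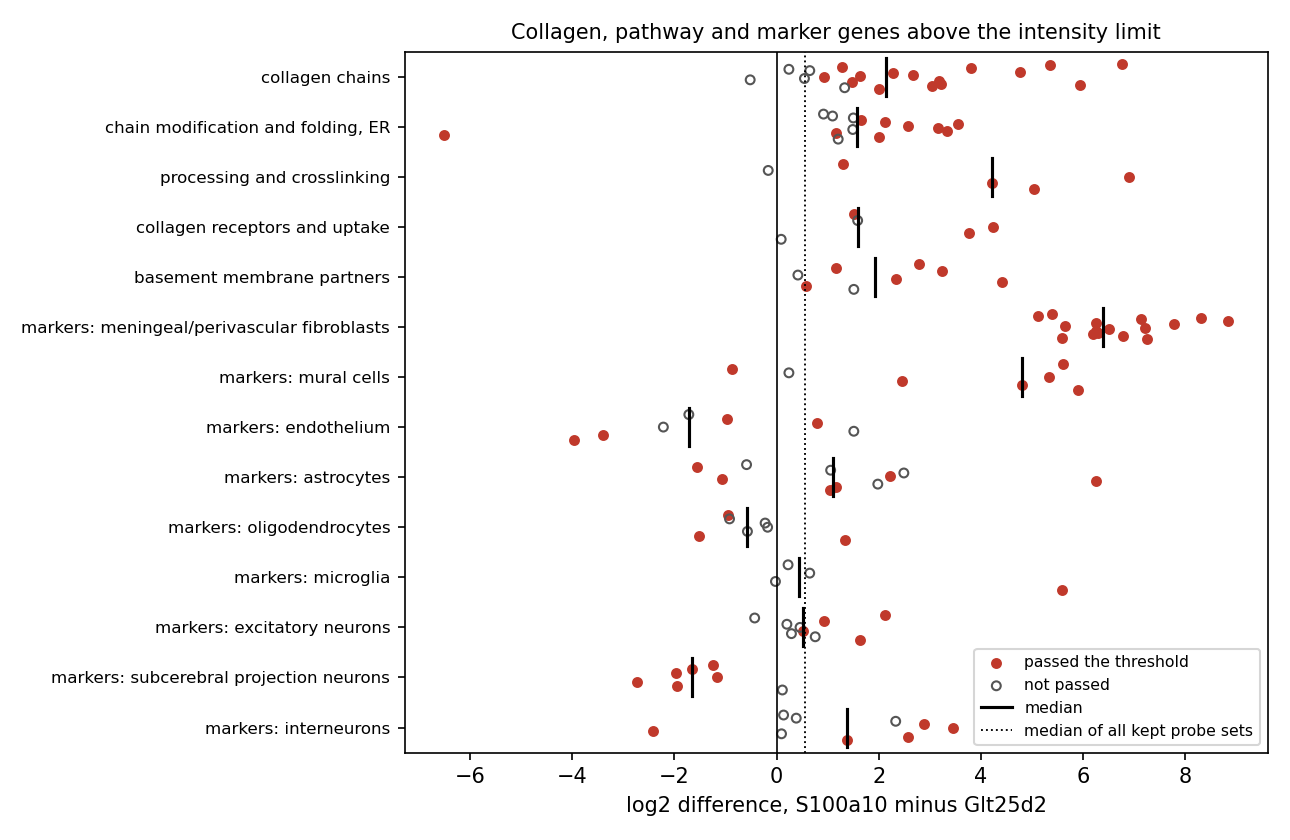
Log2 difference of S100a10 minus Glt25d2 for the measured genes of each list (1 point a gene, filled where it passed the threshold), with list medians as bars and the median of all tested probe sets, 0.55, as a dotted line. The 16 fibroblast markers all lie right of the line, the endothelial median lies at -1.72, and the collagen chains spread from -0.52 for Col22a1 to 6.76 for Col1a2.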

How the data were processed

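The data are 1 table of 45101 probe sets and 6 Affymetrix arrays, from 15 ng of RNA a sample after 2-cycle amplification, per the labels. The authors deposited linear intensities made with GCRMA, per the submitters' processing notes, which name no version. Although the series text speaks of averaged replicates, each of the 6 arrays has its own column.

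Of the probe sets 64 were controls and were left out, 34945 name 1 gene, 932 several and 9160 none. All 42 collagen genes were found in the RefSeq table by Entrez identifier, and 0 symbols changed. With no pseudocount added, log2 of the deposited intensities was fitted with limma 3.58.1 (R 4.3.3; lmFit, then eBayes) as S100a10 minus Glt25d2, without a block, for probe sets whose mean reached 50 in 1 group or both; tests are 2-sided, with Benjamini-Hochberg adjustment and a threshold of 0.05. The fit was tested on simulated data. Each gene is read from the kept probe set that is brightest by mean log2. Tables were made in Python 3.11.15 with pandas 2.3.3, and plots with matplotlib 3.10.9.

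The members, classes and gene lists were chosen with earlier results of these data known, so no list is independent support. Every member is accounted for, and from each pathway list up to 4 called genes with the largest differences are named, and from marker lists up to 3. Ppib, P4hb, Plod3, P3h1, P3h4, Ddr1, Hspg2, Rgs5, Snap25, Syt1, Syn1 and Rbfox3 were named after their values were seen. The replicate numbers were not used as pairs. Alternatives were other filters, quantile normalization, centring, an added 16 before log2, a floor of 50, the replicate block, a trended prior, array weights, 1 probe set a gene, and each array left out.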

Additional observations from a re-analysis of the deposited data

How the results depend on the processing

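The counts depend most on the filter. Without it, 50 of the 82 collagen probe sets were higher in S100a10 arrays and 6 lower, for 26 and 3 of the genes, and the median collagen difference relative to all probe sets was 0.52 in place of 1.40. With both group means at 50 or more, 7 probe sets were left, of which 2 were higher and 0 lower (2 genes higher), with a relative median of 0.20; this filter removes genes low in 1 group. With values under 50 set to 50 the relative median was 0.47. Quantile normalization and centring each gave 3 lower probe sets and 1 lower gene, quantile normalization without Glt25d2 replicate 3 gave 4 and 2, and a fit with 1 probe set a gene gave 0 lower. Of the 21291 tested probe sets, 9405 were higher and 934 lower as deposited, 3574 and 4128 after quantile normalization, 3363 and 6447 after centring, and 7457 and 558 with the replicate block; without the filter it was 19640 and 5131 of 45037. Over the 6 fits that leave out 1 array, 19 to 23 probe sets and 14 to 16 genes were higher, 1 probe set and 0 genes lower, and the relative median ran between 1.07 and 1.51. The replicate number as a block left 20 probe sets higher and 1 lower and 15 genes higher and 0 lower; the numbers pair nothing known, since arrays of the same number correlated in their deviations at -0.45, 0.22 and -0.24 and not every array correlated best with its own number. Signs turned for 3 genes that had not passed: Col4a1 was -0.66 after quantile normalization, -0.53 after centring, -0.085 with array weights, between -0.013 and 0.41 with 1 array left out (lowest without Glt25d2 replicate 3), and -0.86 after quantile normalization without that array, where it passed as lower (adjusted p = 0.00801); Col4a2 was -0.26, -0.12 and, with both steps, -0.38; Col19a1 was -0.35, -0.22 and, with both steps, -0.47. Of the comparisons of single genes, 315 kept their direction and side of the threshold, 11 no longer passed, 7 newly passed in the same direction and 11 changed sign, of which 1 (that of Col4a1) passed. Col5a1, Col6a2 and Col16a1 stopped passing under quantile normalization and centring, and Col6a3 and Col8a2 with values under 50 set to 50. Intensities near 50 limit what can be seen of the dim chains.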

Other observations

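Of the 54 collagen probe sets under the limit, 41 had a higher mean in S100a10 than in Glt25d2 arrays. The median array intensity was also higher in S100a10 arrays, and these probe sets were not tested. The same share was not counted over all 23746 probe sets below the limit, so the 41 have no background to compare with. In all, 20 of the 22 genes without a tested probe set had no array at 50, the exceptions being Col1a1 and Col18a1 with 1 S100a10 array each.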
